A study of Mus musculus with 6 samples.

Results

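Bone morphogenetic protein (BMP) ligand and receptor genes were followed in tracheal mesenchyme at 48 h post injury (hpi) and in uninjured controls. The genes were Bmp2, Bmp3, Bmp4, Bmp5, Bmp6, Bmp7 and Gdf5, which encode ligands, and Bmpr1a, Bmpr1b and Bmpr2, which encode receptors. All probe sets that the array annotation gave to exactly 1 of these symbols were taken, whatever their values. This gave 22 probe sets of 45037 tested and 9 genes of 18193, made up of 6 ligand genes with 10 probe sets and 3 receptor genes with 12. Bmp3 had no probe set under its symbol or synonym and is not analysed here.

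The 48 hpi group held 3 samples from male C57Bl/6 mice that breathed 500 ppm sulfur dioxide for 4 h, a gas injury that kills the luminal cells of the airway epithelium. The control group held 3 samples from uninjured male mice of the same strain, and mice of the injury model were aged 8 to 12 weeks. Each sample pooled tissue of 4 mice, so p-values measure the spread between pools. The epithelium was peeled away after 23 min in dispase, and all of the remaining tissue was used, with no sorting of cell types. Values are expression on the log2 scale after robust multi-chip analysis (RMA), so a difference of 1 is a doubling or a halving.

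Correlation between arrays within a group was 0.987 to 0.994, and array medians lay between 5.29 and 5.38. Markers of fibroblasts averaged 11.93 to 12.10 at 48 hpi and 11.94 to 12.06 in controls over 12 genes. Markers of airway epithelium were also present, at averages of 6.96 to 8.09 at 48 hpi and 7.39 to 8.18 in controls over 12 genes, led by the secretory product Scgb1a1 at 10.31 ± 1.83 at 48 hpi and 12.88 ± 0.51 in controls (SD, n = 3 each). Transcripts of epithelial genes were thus measured in tissue labelled mesenchyme, in both groups. Of 12 macrophage markers 11 rose, as did 9 of 9 mitosis genes, beside 4.97% of all genes. In bulk samples such as these, fewer cells of a type and less RNA per cell cannot be told apart.

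BMPs are secreted dimers of the TGF-beta superfamily. They bind a complex of type I receptors, such as Bmpr1a and Bmpr1b, and type II receptors, such as Bmpr2, which are serine/threonine kinases. The complex phosphorylates Smad1, Smad5 and Smad9, which enter the nucleus with Smad4 and induce target genes such as the Id family. In the mouse embryo, the pathway is needed for separation of the trachea from the esophagus and for tracheal cartilage.

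Of the 9 genes, 6 had an upstream sequence in the RefSeq table used here (GRCm38.p6). The 250 bases before the annotated start are shown for the 3 ligand genes with such a sequence. Bmp2, Bmp7 and Gdf5 had none. Capitals mark the motifs found on either strand.
Bmp4 (chr14:46390670-46390919, minus strand): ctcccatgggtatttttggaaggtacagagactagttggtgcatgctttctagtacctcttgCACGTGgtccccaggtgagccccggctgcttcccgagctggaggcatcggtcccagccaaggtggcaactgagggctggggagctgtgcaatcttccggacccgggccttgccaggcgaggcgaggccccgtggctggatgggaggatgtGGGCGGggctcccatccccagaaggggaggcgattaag
Bmp5 (chr9:75775115-75775364, plus strand): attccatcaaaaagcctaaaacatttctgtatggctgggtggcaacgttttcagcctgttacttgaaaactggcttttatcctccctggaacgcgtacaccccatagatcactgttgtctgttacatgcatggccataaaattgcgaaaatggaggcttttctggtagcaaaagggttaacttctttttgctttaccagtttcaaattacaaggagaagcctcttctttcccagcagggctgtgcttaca
Bmp6 (chr13:38345466-38345715, plus strand): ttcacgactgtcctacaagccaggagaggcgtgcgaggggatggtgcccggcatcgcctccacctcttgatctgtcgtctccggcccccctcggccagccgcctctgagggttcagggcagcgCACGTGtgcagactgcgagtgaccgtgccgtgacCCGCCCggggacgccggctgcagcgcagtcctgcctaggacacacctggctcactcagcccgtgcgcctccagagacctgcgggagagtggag
The motifs searched were the E-box CACGTG, the GC box GGGCGG, the GC-rich Smad motif GGCGCC, the TATA box TATAAA, the CCAAT box and the GLI motif GACCACCCA. The E-box lay 188 bases before the start of Bmp4 and 127 bases before that of Bmp6, and 6.04% of all 32536 windows of this length hold it. A GC box lay 38 bases before the start of Bmp4 and 93 before that of Bmp6, against 33.0% of all windows. The Bmp5 window held none of the 6 motifs. Shares for the others were 9.65% for the Smad motif, 12.3% for the TATA box, 33.8% for the CCAAT box and 0.218% for the GLI motif. The windows also differed in base composition. G and C made up 68.8% of the Bmp6 window, with 22 CpG dinucleotides, and 63.2% of the Bmp4 window, with 11. They made up 42.8% of the Bmp5 window, with 4, and the median over all windows was 52.4%. These windows thus share neither composition nor a motif in common among the 3, and a match is a description of letters, not a site.

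Each of the 9 member genes had a log2 fold change below 0, where a gene is represented by its probe set with the highest mean. The median was -0.50 over the 6 ligand genes and -0.21 over the 3 receptor genes, against -0.01 over all genes, of which 53.2% lay below 0. Bmp2, Bmp5 and Bmp6 fell at an adjusted p under 0.05 in limma, 3 of 9 genes, while 1.24% of all genes fell and 4.97% rose. None of the 9 rose, by limma or by an equal-variance test without moderation, either adjusted or at an unadjusted p under 0.05. At an unadjusted p under 0.05, 6 of the 9 were lower in limma, beside 9.29% of all genes lower and 14.6% higher. Without moderation 5 of the 9 were lower, beside 1461 of 18193 genes lower and 2399 higher. These 3 calls were lost when arrays were scaled on control probe sets (adjusted p = 0.297 for Bmp2, 0.378 for Bmp5 and 0.261 for Bmp6), where 0.192% of all genes fell and 4.07% rose. Their log2 fold changes were then -0.48, -0.43 and -0.49. They were also lost without moderation of the variance (0.176, 0.0567 and 0.164), a setting that leaves the fold changes as they are and in which 0.022% of all genes fell. Counted by probe sets, 3 of 22 fell and 0 rose, beside 0.846% and 3.49% of all probe sets.

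In 6 of the 9 genes, all 3 values at 48 hpi lay below all 3 control values. The background is high for this measure, with 13.1% of all genes entirely below and 17.2% entirely above their controls. Over probe sets, 8 of 22 lay entirely below and 0 entirely above, beside 12.1% and 13% of all probe sets.

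**Figure D1:**
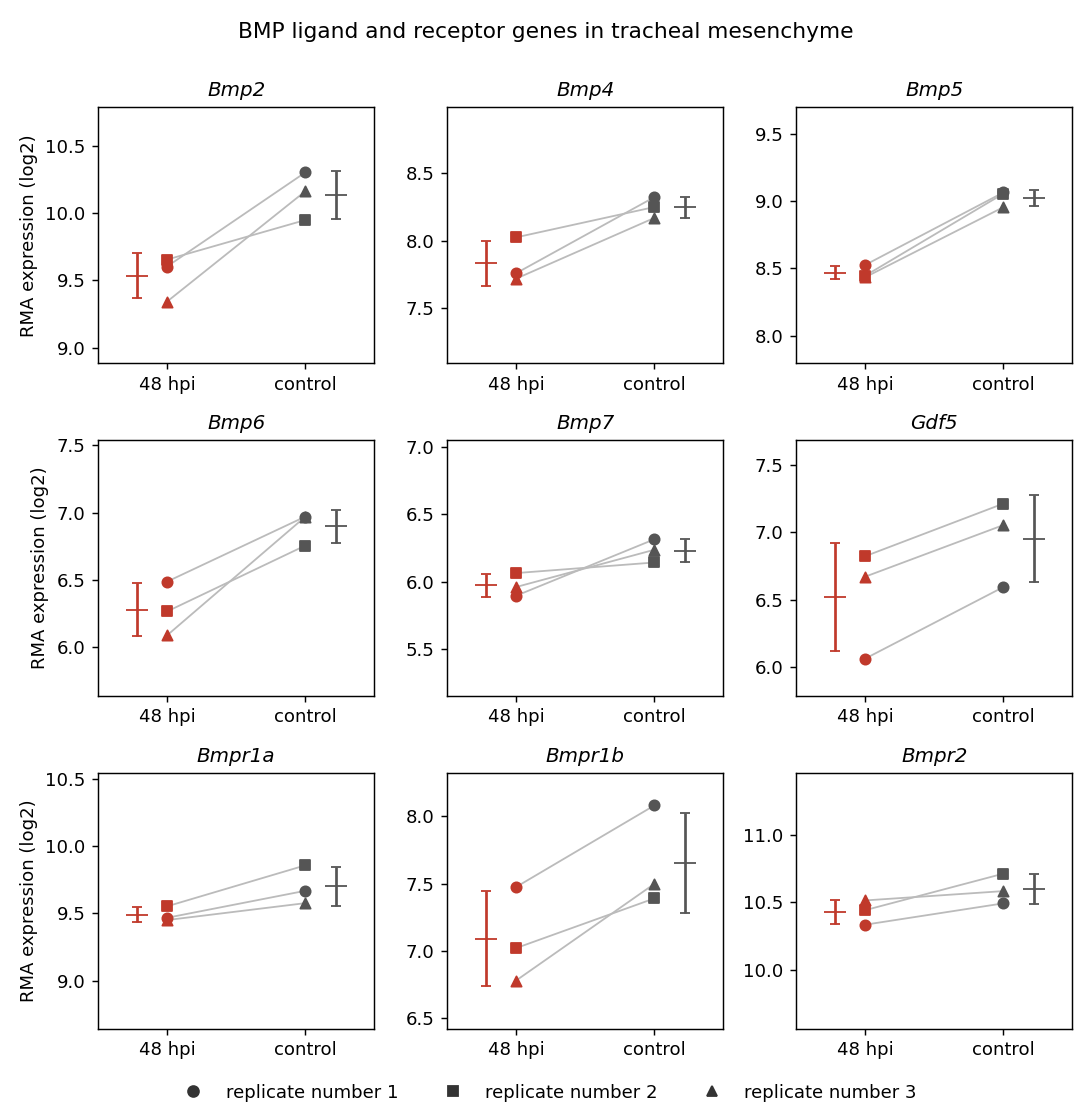
RMA expression (vertical axes, log2) of the 9 measured genes in 48 hpi samples (red, left) and control samples (grey, right), 1 panel a gene over the same span of values, with mean ± SD beside the points (n = 3) and lines that join samples of the same replicate number. All lines slope the same way, for which the share over all genes was not counted. The groups do not overlap in Bmp2, Bmp4, Bmp5, Bmp6, Bmp7 and Bmpr1a.

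Bmp2 and Bmp4 form 1 subclass of ligands, with closely related mature domains. Bmp2, a strong inducer of bone and cartilage, was 9.60, 9.65 and 9.34 in the 48 hpi samples, against 10.30, 9.95 and 10.16 in the controls. Every injured sample lay below every control. The log2 fold change was -0.60 ± 0.13 (SE), or 65.8% of the control level on the linear scale, with an adjusted p of 0.0483 in limma. This value is close to the threshold, and the call was lost whichever sample was left out, with adjusted p from 0.0624 without control replicate 2 to 0.165 without 48 hpi replicate 3. Its log2 fold change in these fits was -0.70 to -0.51, and 0.0934% to 0.539% of all genes fell in them.

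Bmp4, a ligand for which the mouse null mutant dies in early embryogenesis, was 7.76, 8.02 and 7.72 at 48 hpi, against 8.32, 8.25 and 8.17 in controls. The groups did not overlap. The fold change was smaller than that of Bmp2, at -0.41 ± 0.11 (SE, 75.1% of control), and did not pass (limma, adjusted p = 0.0894). Replicate numbers are shared between the groups, and samples of the same number deviated together across probe sets, so a fit with the number as a block was also made. With this replicate block Bmp4 fell (adjusted p = 0.0437).

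Bmp5, Bmp6 and Bmp7 form another subclass. Bmp5, whose loss gives the short ear mouse with its defects of cartilage and skeleton, had the tightest values of any member at 8.52, 8.44 and 8.43 at 48 hpi and 9.06, 9.05 and 8.95 in controls. The gap between the groups was larger than the spread within either, with means of 8.47 ± 0.05 and 9.02 ± 0.06 (SD, n = 3 each). Bmp5 fell by 0.56 ± 0.08 on the log2 scale (SE, 68.0% of control), with an adjusted p of 0.0143 in limma. It stayed past the threshold without control replicate 1, control replicate 3 or 48 hpi replicate 1. It did not without control replicate 2 (0.0566), 48 hpi replicate 2 (0.0520) or 48 hpi replicate 3 (0.0750). The log2 fold change was -0.59 to -0.54 in these fits.

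The probe sets of Bmp5 did not give equal changes. The second brightest was 6.23, 6.18 and 6.41 at 48 hpi and 6.71, 6.64 and 6.56 in controls, again without overlap, with a log2 fold change of -0.37 ± 0.10 (limma, adjusted p = 0.0894). The dimmest was 6.01, 5.98 and 5.55 at 48 hpi and 6.06, 6.35 and 5.85 in controls, where the groups overlapped (-0.24 ± 0.17, adjusted p = 0.498). All 3 thus lay below 0 and 1 passed. The fold change of the brightest was lower than that of the other two by 0.19 (95% interval of the difference -0.46 to 0.08) and 0.31 (-0.68 to 0.05), and neither difference passed (limma, adjusted p = 0.455 and 0.357).

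Bmp6, which is known for control of iron balance through hepcidin, was 6.49, 6.27 and 6.09 at 48 hpi, against 6.97, 6.75 and 6.97 in controls. The groups did not overlap. It had the largest change of the 9 genes, at -0.62 ± 0.13 (SE, 65.2% of control, limma, adjusted p = 0.0420). The call remained without 48 hpi replicate 1 (0.0423) and was lost without any other sample, with adjusted p up to 0.144 without 48 hpi replicate 3 and log2 fold changes of -0.72 to -0.52.

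Bmp7, a ligand needed for kidney and eye development, was 5.90, 6.06 and 5.96 at 48 hpi and 6.32, 6.14 and 6.24 in controls on its brightest probe set. The groups did not overlap, but the nearest values differed by little, and the fold change of -0.26 ± 0.09 did not pass (limma, adjusted p = 0.181, and 0.148 with the replicate block). The other two probe sets of Bmp7 had log2 fold changes of -0.10 ± 0.15 and 0.03 ± 0.11, with overlapping groups. The dimmer of these averaged 3.35, below the median of 5.35 over all values of the table.

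Gdf5, a ligand of joints and cartilage, was 6.06, 6.82 and 6.67 at 48 hpi, against 6.59, 7.21 and 7.05 in controls. The groups overlapped, and the sample numbered 1 was lowest in both. The fold change of -0.44 ± 0.23 did not pass (limma, adjusted p = 0.372). Within numbers, however, the 48 hpi sample was lower by a similar amount each time, with differences of -0.53, -0.39 and -0.38, and Gdf5 fell with the replicate block (adjusted p = 0.0256).

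Among the receptors, Bmpr1b had the largest log2 fold change. Bmpr1b, the type I receptor with the best known role in cartilage of the digits, was 7.48, 7.02 and 6.78 at 48 hpi, against 8.08, 7.39 and 7.50 in controls. The groups overlapped, because 48 hpi replicate 1 lay above control replicate 2. The log2 fold change was -0.56 ± 0.23 (SE, 67.6% of control), which did not pass without the block (limma, adjusted p = 0.248). Within numbers the differences were -0.61, -0.37 and -0.72, and Bmpr1b fell with the replicate block (adjusted p = 0.0182). Its other two probe sets had a mean of 3.71 and 3.60, among the lowest 20.8% of probe sets, with log2 fold changes of -0.29 ± 0.18 and -0.32 ± 0.20, and passed in neither fit.

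Bmpr1a, the type I receptor found in most tissues, had 6 probe sets, 5 of which lay below 0. Its brightest was 9.47, 9.55 and 9.45 at 48 hpi, against 9.67, 9.86 and 9.57 in controls, without overlap. The change was small, at -0.21 ± 0.10 with a 95% interval from -0.44 to 0.02 (limma, adjusted p = 0.312). A dimmer probe set, at 5.88, 5.78 and 5.76 at 48 hpi and 6.17, 5.99 and 6.01 in controls, gave a similar change of -0.25 ± 0.09 (limma, adjusted p = 0.188). The other 4 overlapped between groups and ranged from -0.12 to 0.07. Of the 6 probe sets, 5 carry the same source accession in the annotation, so they are repeated readings of 1 transcript sequence rather than separate evidence.

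Bmpr2, the type II receptor whose human gene is mutated in heritable pulmonary arterial hypertension, was 10.33, 10.44 and 10.51 at 48 hpi and 10.49, 10.71 and 10.58 in controls. The groups overlapped, and the change was -0.17 ± 0.10 with a 95% interval from -0.39 to 0.06 (limma, adjusted p = 0.407). A second probe set lay in the opposite direction, at 7.01, 6.71 and 6.71 at 48 hpi and 6.78, 6.51 and 6.70 in controls (0.15 ± 0.12, adjusted p = 0.565), and the remaining one at -0.14 ± 0.08. No probe set of Bmpr1a or Bmpr2 passed in limma with or without the block. For the receptor genes, limma called 0 of 3, with 1 lower at an unadjusted p under 0.05 (Bmpr1b), where 9.29% of all genes were lower, and 0 in the equal-variance test. The intervals of Bmpr1a and Bmpr2 still allow falls of up to 0.44 and 0.39 on the log2 scale.

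**Figure D2:**
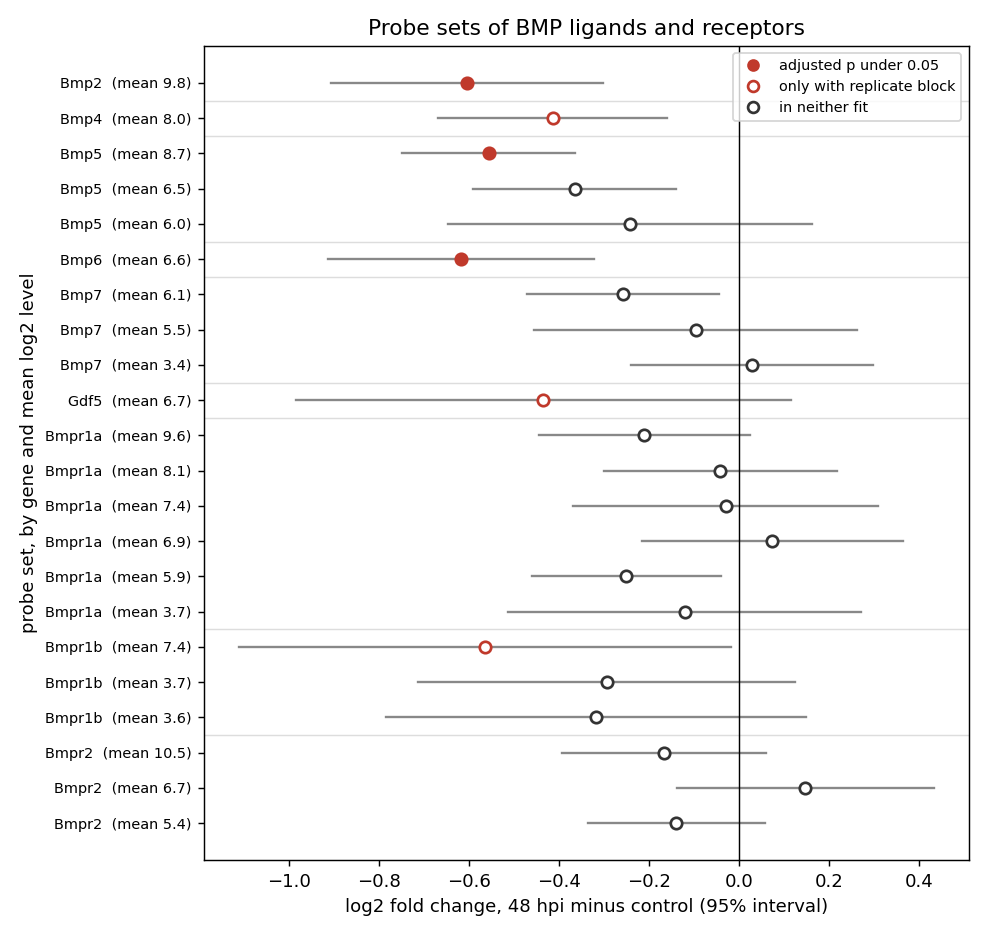
Log2 difference, 48 hpi minus control (horizontal axis, points, with 95% intervals from limma as bars) of the 22 probe sets (vertical axis, by gene and falling mean level), filled where the adjusted p was under 0.05 and ringed in red where it was so only with the replicate block. Of the 22, 19 lie below 0, and the 3 above 0 belong to Bmp7, Bmpr1a and Bmpr2.

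Probe sets of a gene were compared in 1 further fit, in which the difference between the brightest probe set and each other one was tested between groups for all genes. None of the 13 such differences among the members passed, beside 3.16% of 16752 differences over all genes. With the replicate block none of the 13 passed either, beside 1130 of the 16752. In 12 of the 13 the brightest probe set had the lower fold change. The share of all 16752 differences with this direction was not counted, so this describes the members only. Of the 22, 4 lay below the median of all values in both groups.

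With the replicate block, 6 of the 9 genes fell, namely Bmp2, Bmp4, Bmp5, Bmp6, Gdf5 and Bmpr1b, and 0 rose. The block raises the counts over all genes as well, to 4.64% that fell and 8.77% that rose. Over probe sets 6 of 22 fell with the block and 0 rose, beside 4.51% and 6.43% of all probe sets. Each of these 6 genes was lower in the 48 hpi sample of all 3 numbers, as were the other 3 genes on their brightest probe sets. The share of all genes lower in all 3 numbers was not counted, so this is a description of the members only.

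**Figure D3:**
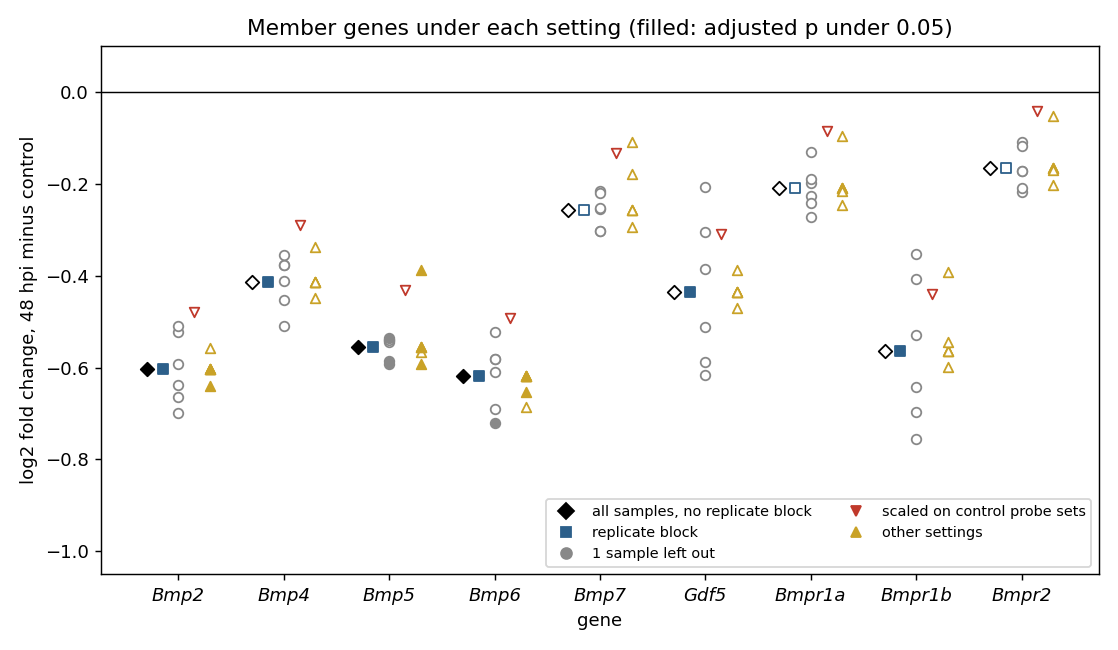
Log2 difference, 48 hpi minus control (vertical axis) of the 9 genes (horizontal axis) in the fit of all samples, with the replicate block, with 1 sample left out in turn, with arrays scaled on the control probe sets and under the other settings, filled where the adjusted p was under 0.05. All values lie below 0, and Gdf5 and Bmpr1b show the widest range when 1 sample is left out, from -0.62 to -0.21 and from -0.76 to -0.35.

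Profiles across the 6 arrays were compared after each gene was centred on its own mean, by the root mean square (RMS) difference in log2 units. Bmpr1a and Bmpr2 were the most alike of the members (0.09), followed by Bmp2 and Bmp6 (0.09) and Bmp4 and Bmp7 (0.11). Gdf5 and Bmpr1b were the least alike (0.58): the sample numbered 1 was the lowest of its group in Gdf5 and the highest in Bmpr1b, in both groups. Among 9095 other genes with a mean above the median gene, those nearest to Bmp2 were Etv5 (RMS difference 0.05) and Sim2 (0.06), both transcription factor genes. Nearest to Bmp4 were Bach2 (0.03) and Dok1 (0.04), to Bmp5 the Hedgehog receptor Ptch1 (0.04) and 2810002D19Rik (0.04), and to Bmp6 the cartilage proteoglycan gene Snorc (0.05) and the phospholipase gene Pla2g5 (0.05). With 6 arrays and this many genes such closeness is a description of these arrays.

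All 12 chondrocyte markers lay below 0, with a median log2 fold change of -0.61. Of these, 1 fell in limma (the link protein gene Hapln1, named after its values were seen, -0.68 ± 0.14, adjusted p = 0.0449) and 9 fell with the replicate block, beside 1.24% and 4.64% of all genes. Averaged over the 12 genes, their level was 10.50, 10.90 and 10.46 in the 48 hpi samples and 11.03, 11.25 and 11.33 in the controls, without overlap. Taken singly, 6 of the 12 lay entirely below their controls, beside 13.1% of all genes, and the others overlapped. Cnmd, which encodes chondromodulin, was at -0.73 ± 0.16 (adjusted p = 0.0536, and 0.0136 with the block) and Col11a1 at -0.72 ± 0.35 (0.325, and 0.0239 with the block), while the 2 brightest markers had smaller values, -0.23 ± 0.10 for the aggrecan gene Acan and -0.46 ± 0.36 for Col2a1, and passed in neither fit. The part of cartilage in the lower ligand values was not tested.

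Markers of epithelium varied between samples in the same order as Bmpr1b within the 48 hpi group. The epithelial list averaged 8.09, 7.22 and 6.96 at 48 hpi, where Bmpr1b was 7.48, 7.02 and 6.78. In controls it averaged 8.18, 7.39 and 7.89, where Bmpr1b was 8.08, 7.39 and 7.50, so that the order was again the same. The order was particular neither to Bmpr1b nor to epithelium. Bmp6, Crim1, Pcsk6 and the chondrocyte marker Comp, picked with their values known, had it in both groups. The share of all genes with this order was not counted. The 12 epithelial markers lay on both sides of 0, with 6 below it, 6 above it and a median log2 fold change of -0.10. Of the 12 epithelial markers 0 passed in limma, and 2 fell with the replicate block, Scgb1a1 and Scgb3a2, beside 4.64% of all genes. At an unadjusted p under 0.05 in limma, 1 was higher and 2 lower, beside 14.6% and 9.29% of all genes. In the equal-variance test 0 passed at an unadjusted p under 0.05. The part of epithelial RNA in the Bmpr1b values was not tested.

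Medians of the other cell lists lay nearer to 0 or above it. The median was -0.02 for fibroblast markers, 0.02 for Schwann cell and nerve markers, 0.13 for smooth muscle markers, 0.41 for endothelial markers and 1.05 for neutrophil markers. Nerve and Schwann cell markers lay on both sides of 0. Of this list S100b fell by 0.57 ± 0.10 (limma, adjusted p = 0.0228). With the block only, the myelin gene Mbp fell by 0.66 ± 0.20 (0.0178, against 0.127 without it) and the neuronal gene Stmn2 rose by 0.65 ± 0.19 (0.0264, against 0.116 without it). Among fibroblast markers the intermediate filament gene Vim rose by 0.73 ± 0.11 (limma, adjusted p = 0.0160). The matrix gene Dpt, named after its values were seen, fell by 0.53 (0.0393). With the block 3 of the 12 fibroblast markers rose and 2 fell, beside 8.77% and 4.64% of all genes. Fbln1 had the largest change of this list, at -0.74 ± 0.19, and fell with the block only (0.00792, against 0.0795 without it). Of 10 endothelial markers 8 lay above 0 and 2 below it, and 3 rose in limma, beside 4.97% of all genes. These were Cdh5 (0.71 ± 0.14), Tie1 (0.65 ± 0.10) and Esam (0.48 ± 0.09). The brightest, Egfl7, did not pass (0.27 ± 0.13, adjusted p = 0.322). The macrophage list averaged 9.34 to 9.65 at 48 hpi and 7.83 to 8.12 in controls over 12 genes, and the mitosis list 7.45 to 7.93 at 48 hpi and 4.57 to 4.92 in controls over 9 genes. The part of these lists in the member values was not tested.

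**Figure D4:**
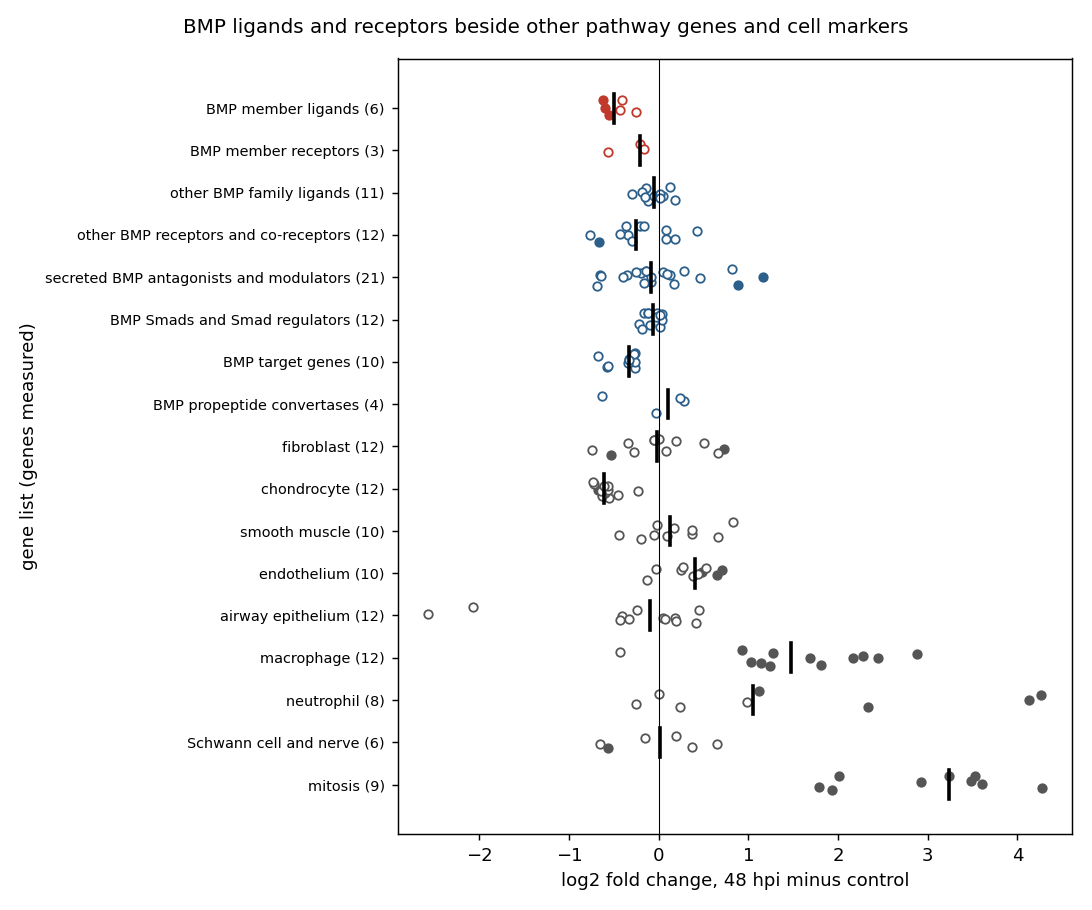
Genes of each list (vertical axis, number measured in parentheses) by their log2 difference, 48 hpi minus control (horizontal axis). Each point is a gene, filled points have an adjusted p under 0.05, and bars stand at list medians. BMP ligands (median -0.50) and chondrocyte markers (-0.61) lie to the left, and macrophage (1.48) and mitosis genes (3.24) to the right.

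Other genes of the BMP pathway lay on both sides of 0. Of 70 other pathway genes 2 rose and 3 fell, with a median of -0.14, while 4.97% of all genes rose and 1.24% fell. With the replicate block 5 of the 70 rose and 10 fell, while 8.77% of all genes rose and 4.64% fell. Of 11 further ligand genes of the family, such as Gdf10 and Gdf11, 0 passed (limma, with 1 lower at an unadjusted p under 0.05, as in the equal-variance test), and their log2 fold changes ranged from -0.30 to 0.18.

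Of 12 further receptors and co-receptors, the RGM receptor gene Neo1 fell by 0.67 ± 0.10 (limma, adjusted p = 0.0180). The pseudoreceptor Bambi, which blocks signaling and is itself a BMP target, was at -0.77 ± 0.19 (0.0720, and 0.00757 with the block), the co-receptor Tgfbr3 at -0.44 ± 0.11 (0.0781, and 0.0231 with the block) and the endothelial co-receptor Eng at 0.43 ± 0.11 (0.0791, and 0.0253 with the block). With the block Bambi and Tgfbr3 therefore fell and Eng rose.

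Of 21 secreted antagonists and modulators, Fst rose by 1.16 ± 0.18 and Fstl3 by 0.88 ± 0.09 (limma, adjusted p = 0.0163 and 0.00351), both of which encode binding proteins of activins and BMPs. Twsg1, which binds BMPs together with chordin, fell by 0.66 ± 0.11 (0.0209) and was named after its values were seen. Chrdl2, a chordin-like antagonist, was at 0.82 ± 0.19 and rose with the block only (adjusted p = 0.0184, against 0.0615 without it). Grem1, an antagonist of Bmp2 and Bmp4, was at -0.69 ± 0.25 and fell with the block only (0.0446, against 0.195 without it). So did Crim1 (-0.65 ± 0.17, 0.0335 with the block and 0.0865 without it), while Fstl1 rose with the block only (0.46 ± 0.19, 0.0326 and 0.258 without it). These 2 genes were chosen with their values known.

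Of 12 Smad genes and their regulators 0 passed (limma with and without the block, 0 also at an unadjusted p under 0.05 in both tests), in a range from -0.22 to 0.03. All 10 measured target genes lay below 0, in a range from -0.68 to -0.26, beside 53.2% of all genes below 0. Of the 10, 1 fell in limma and 3 with the block, beside 1.24% and 4.64% of all genes. Id2, an inhibitor of basic helix-loop-helix factors, fell by 0.58 ± 0.10 (limma, adjusted p = 0.0238). Id1 (-0.57 ± 0.22) and Id4 (-0.68 ± 0.22) fell with the block only (0.0260 and 0.0252, against 0.220 and 0.159 without it). Of 4 propeptide convertases, which cut BMP precursors, Pcsk6 was at -0.63 ± 0.17 and fell with the block only (0.0174, against 0.0934). The falls of Neo1, Twsg1 and Id2 depended on single samples and on the scaling, since 0 pathway genes fell with arrays scaled on control probe sets. Of the pathway genes 0 fell without control replicate 1, control replicate 3, 48 hpi replicate 1 or 48 hpi replicate 3, 1 without control replicate 2 and 2 without 48 hpi replicate 2. The number that rose was 2 in each of these fits but the one without 48 hpi replicate 3, where it was 1.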

How the data were processed

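RNA from 3 samples of mesenchyme at 48 hpi and 3 controls was hybridized by the authors to 1 Affymetrix mouse array each. The deposited values are log2 expression after RMA, which the authors ran to correct background, quantile normalize and summarize each probe set, with Partek 6.5 and Affymetrix Expression Console 1.1 named in the submitters' processing notes. RMA hides a change shared by most genes and compresses that of dim ones. The number of arrays limits the precision.

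Of 45101 probe sets, 64 controls were left out. Exactly 1 symbol was annotated for 34945 probe sets, more than 1 for 932 and no symbol for 9160, and 34741 symbols were matched by Entrez identifier to RefSeq (GRCm38.p6, for names). A gene took its probe set with the highest mean. The test was limma 3.58.1 in R 4.3.3 (lmFit, eBayes, two-sided, group as factor), with Benjamini-Hochberg adjustment over all probe sets and a threshold of 0.05. Errors of fold changes are SE. There were 4 residual degrees of freedom, or 2 with the replicate block.

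Samples of the same number correlated at 0.62, 0.36 and 0.34 in their deviations from group means, which is why the blocked value is given where it changed a call. The highest correlation of each 48 hpi sample with a control of another number was -0.36, 0.18 and 0.11. Deviations within a group cancel, so these correlations are not independent of each other. The labels do not say what a number marks. On simulated data for 48 hpi against control, over 45037 probe sets, the fit called 16.4% of 1.5-fold, 68.7% of 2-fold and 84.8% of 4-fold changes, with 6 false calls. The simulated noise was independent between samples, without the shared deviations of samples of the same number. Fewer probe sets were changed in it than were called in the data. These figures therefore need not hold for the data.

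The members and lists were chosen with earlier results of these data known. The genes named were all members, up to 4 called genes of each pathway list by size, of each cell list the 2 brightest and the 2 largest changes where shown, and the 2 genes nearest in profile to Bmp2, Bmp4, Bmp5 and Bmp6. The test between probe sets was added after the values were seen. Alternatives were the block, each sample left out, dim probe sets left out, a trended robust fit, no moderation, scaling on control or on bright probe sets, and the mean of all probe sets of a gene.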

Additional observations from a re-analysis of the deposited data

How the results depend on the processing

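All 9 member genes kept a log2 fold change below 0 under each of the 14 alternatives. The block, leaving out dim probe sets, the trended robust fit and no moderation gave the same fold changes as the fit of all samples. The direction could not change in these. It could change only with samples left out, with scaling or with the mean of probe sets. The calls were less stable, and changed with the block and without moderation although the fold changes were the same. The number of member genes that fell, 3 in the fit of all samples, was 6 with the replicate block, 0 to 2 when 1 sample was left out, and 0 without moderation, with arrays scaled on control probe sets or without both samples numbered 1, a setting chosen after seeing the data. The same counts held for member probe sets, 3 in the fit of all samples. Scaling on control probe sets moved the median of all probe sets to 0.09, against -0.04 as deposited. Such scaling shifts the fold change of every gene by the same amount. The member median relative to the median of all probe sets was therefore -0.40 under both by construction. Of other pathway genes, 2 rose and 3 fell in the fit of all samples, against 5 and 10 with the block, 0 and 0 without moderation, 1 and 0 without both samples numbered 1, 0 that fell with scaling on control probe sets, and 1 to 2 that rose and 0 to 2 that fell with 1 sample left out. Of cell list genes 28 rose and 3 fell, against 3 and 0 without moderation, 15 that fell with the block, 5 that fell in the trended robust fit, and 21 to 28 that rose and 0 to 3 that fell with 1 sample left out. Of all genes 904 rose and 226 fell, against 1596 and 845 with the block, 740 and 35 with scaling on control probe sets, 41 and 4 without moderation, and 349 to 647 and 17 to 98 with 1 sample left out.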
